A study of Mus musculus with 18 samples.

Results

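The genes described here are 42 genes of the Wnt pathway, chosen by name from the 52636 genes of the count table: 13 Wnt ligands, 2 genes of ligand secretion, 9 Frizzled receptors, 4 coreceptors, 4 secreted inhibitors, 4 intracellular genes and 6 feedback targets. Each name matched exactly 1 row. RNA-seq measured them in keratinocytes of mice on a C57BL/6 background. The control animals carried Zfp36 alleles flanked by loxP sites (Zfp36 fl/fl). In their littermates (Zfp36 ΔK14, called ΔEP by the study), Cre recombinase under the keratin 14 promoter had removed the gene from keratin 14-expressing epithelium, which includes the interfollicular epidermis and the hair follicle. Zfp36 encodes tristetraprolin, a protein that binds AU-rich elements in mRNA and speeds mRNA decay. For each genotype there was mock skin, treated skin and tumor. Treated skin was nontumoral skin next to papillomas after the carcinogen DMBA and the tumor promoter TPA, although one label calls these samples tumoral keratinocytes. Tumors were papillomas from the same protocol. The labels name whole skin as the source, whereas the study's methods describe sorting of living epidermal cells by EpCAM, with leukocytes, fibroblasts and endothelium gated out. The question was how the level of each Wnt gene differed between mock skin, treated skin and tumors, apart from the variation that the hair cycle brings to mock skin.

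The 6 groups held 18 columns of read counts, and 17 libraries were used because mock ΔK14 replicates 2 and 3 did not differ in a single gene and entered as 1 library (n = 2 for that group and n = 3 for the others). Total counts ran from 2808550 to 9617985 a library. Zfp36 checked the labels: its level ran from 152 to 713 CPM (read counts brought to a common library size, with TMM factors) over the 9 fl/fl libraries and from 10 to 38.4 CPM over the 8 ΔK14 libraries, so the genotypes did not overlap. Basal epidermal keratins and integrins were abundant in every library, with a summed level of the 6-gene basal list between 3204 and 33421 CPM. Fibroblast RNA was present although the gate was set against it: the 9-gene list of fibroblasts and dermal papilla summed to 399 to 1699 CPM in skin and to 64.1 to 431 CPM in tumors. Its collagen gene Col1a1 had 28.6 to 723 CPM in skin and 17.1 to 188 CPM in tumors, and its proteoglycan gene Dcn had 46.9 to 973 CPM and 0.190 to 10 CPM. These genes did not move together in mock skin. Dcn had 842 (fl/fl) and 973 CPM (ΔK14) in replicate 1, against 46.9 to 96.8 CPM in the other mock libraries. Col1a1 had 257 and 28.6 CPM in replicate 1, against 226 to 723 CPM. Leukocyte RNA was sparse, with a summed level of the 8-gene list between 8.63 and 33.1 CPM outside 1 treated ΔK14 library (174 CPM) and the ΔK14 tumors (59.1 to 85.7 CPM). Cd74 made up most of these higher sums, with 172 CPM in that treated library and 54.8 to 83.5 CPM in the ΔK14 tumors. Each other gene of the list had at most 3.92 CPM in any library. Replicate 1 of the fl/fl tumors stood apart from its group: its total was the lowest, its basal list summed to 33421 CPM against 8826 and 8817 CPM in the other fl/fl tumors, and its 8-gene sebaceous gland list summed to 641 CPM against 4843 and 8833 CPM. Results that rest on this library are given with and without it. The labels do not say that replicates came from separate mice, so p-values measure only the spread between these samples. In these bulk samples, fewer cells of a type and less RNA per cell cannot be told apart.

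Wnt ligands are secreted proteins that need the acyltransferase Porcn and the carrier Wls to leave the cell. At the target cell they bind Frizzled receptors together with Lrp5 or Lrp6, which stabilizes β-catenin (Ctnnb1) so that it can activate target genes with the DNA-binding proteins Lef1 and Tcf7. Some targets act as brakes: Axin2 scaffolds β-catenin destruction, Nkd1 and Nkd2 bind Dishevelled, and the ubiquitin ligases Rnf43 and Znrf3 remove Frizzled receptors from the cell surface. Ror1 and Ror2 are receptor tyrosine kinases for Wnt5a-type signals. In skin, Wnt signaling starts hair follicle growth (anagen), and Lef1 is prominent in the hair matrix that produces the shaft, so Wnt genes can change with the hair cycle alone.

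Compared per kilobase of transcript (RPKM, that is CPM divided by length, on the lengths of the reference annotation), Ctnnb1 had the highest mean level of the 42 genes in each of the 6 groups, from 89.4 ± 9.55 RPKM (SD, n = 3) in fl/fl tumors to 145 ± 19.3 RPKM (SD, n = 3) in fl/fl treated skin. Among receptors in fl/fl treated skin, the mean level was 57.7 ± 31.2 RPKM for Fzd1, 30.1 ± 19.9 RPKM for Fzd5, 26.4 ± 3.18 RPKM for Fzd7, 17.3 ± 3.14 RPKM for Fzd10 and 17.1 ± 1.5 RPKM for Fzd6 (SD, n = 3). Fzd1 and Fzd5 were within their spread of each other, and so were Fzd10 and Fzd6. In ΔK14 tumors Fzd6 led the receptors at 18.6 ± 0.807 RPKM (SD, n = 3). The ligands with the highest mean level there were Wnt10a at 23.3 ± 3.47 RPKM, Wnt4 at 18.8 ± 5.88 RPKM and Wnt5a at 14.4 ± 6.56 RPKM, neighbors that did not differ beyond their spread. The lowest gene was Dkk1, a secreted antagonist of Lrp5 and Lrp6, with 0 counts in all 17 libraries. A count of 0 allows up to 3 counts, equal to 0.289 CPM in the deepest scaled library and 1.5 CPM in fl/fl tumor replicate 1 (counting error only). Of the 42 genes, 40 passed the filter on low counts over all groups, and Wnt7a and Dkk1 did not.

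**Figure D1:**
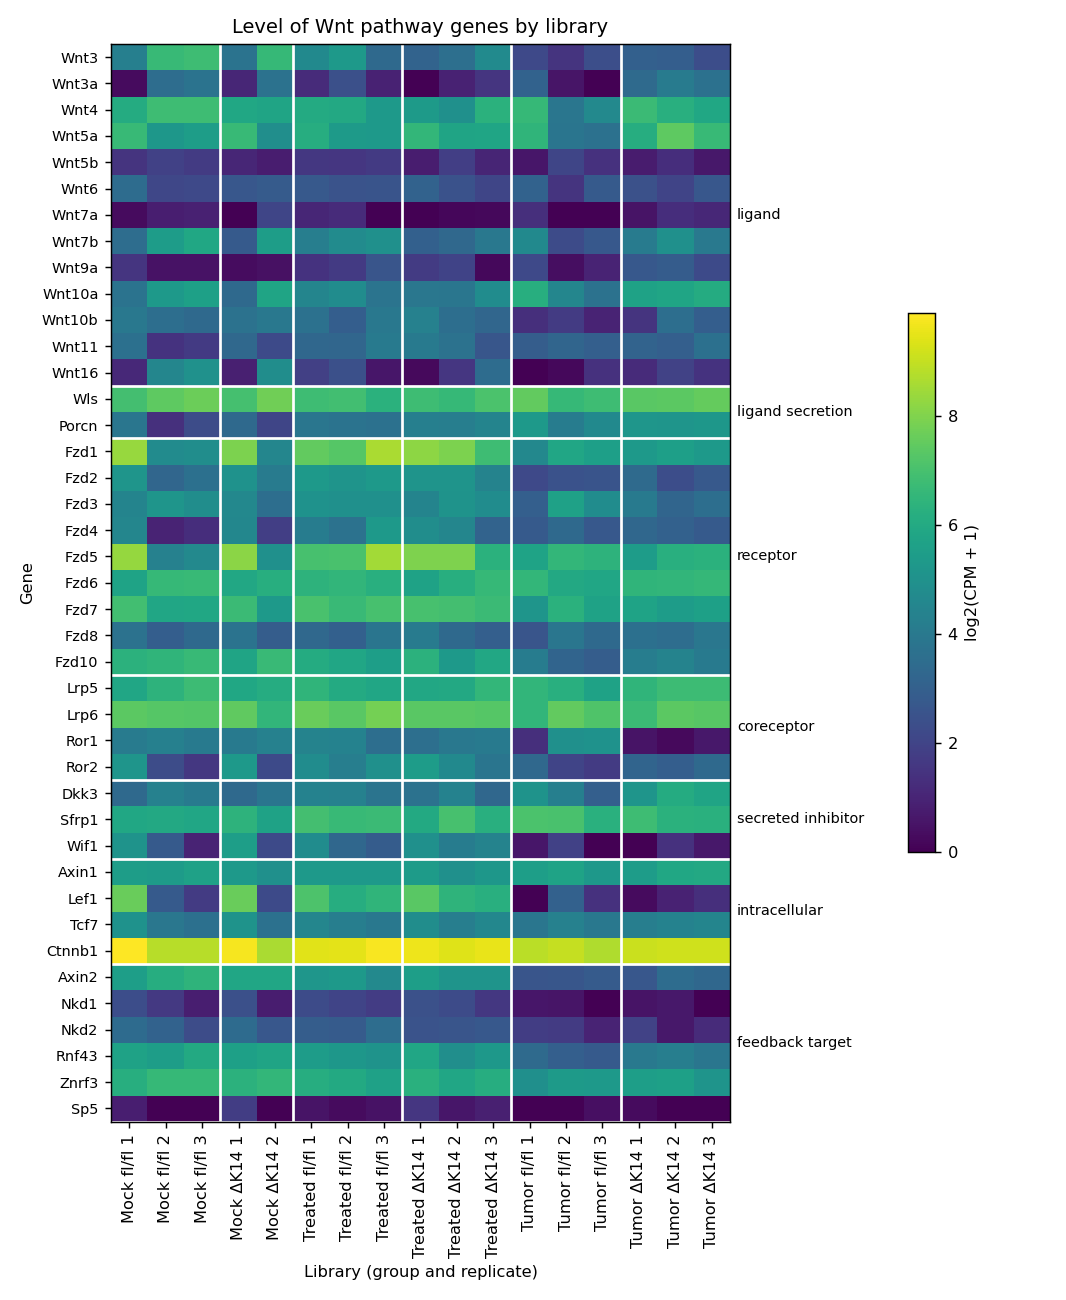
Level of each Wnt pathway gene with a count above 0 (rows, grouped by role) in each of the 17 libraries (columns, by group and replicate), as log2(CPM + 1) by color. In both genotypes, mock replicate 1 resembled treated skin more than the other mock libraries for Fzd1, Fzd5 and Lef1, and Axin2 and Rnf43 were darker in the tumor columns than in every other column.

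Mock libraries were not alike. In both genotypes, replicate 1 carried far more RNA of growing hair than the other mock libraries: the hair matrix and shaft list (17 of 18 genes in the table) summed to 713 CPM (fl/fl) and 651 CPM (ΔK14) in replicate 1 against 34.3 to 46.7 CPM in the others. The 10-gene inner root sheath list summed to 2279 and 2316 CPM against 633 to 717 CPM. In the other mock libraries that sum was mostly Gata3, with 618 to 700 CPM against 168 and 201 CPM in replicate 1. Every other gene of the list had at most 10.8 CPM in them. The highest, Tchh, had 615 and 575 CPM in replicate 1. Treated libraries lay in between or near replicate 1, with 255 to 609.7 CPM for the hair matrix list, and tumors had 8.82 to 66.0 CPM. The 6-gene melanocyte list followed the same split, with 319 and 278 CPM in replicate 1 against 41.7 to 94.3 CPM in other mock libraries, 52.2 to 366 CPM in treated skin and 9.14 to 38.4 CPM in tumors. Other lists split the mock libraries too. In replicate 1 (fl/fl, then ΔK14) the basal list summed to 3204 and 3289 CPM against 15219 to 17113 CPM in the others, and the 7-gene list of differentiated epidermis to 724 and 612 CPM against 5896 to 7901 CPM. The 10-gene bulge and hair germ list summed to 659 and 676 CPM against 2316 to 3002 CPM, and the 10-gene proliferation list to 1664 and 1678 CPM against 377 to 808 CPM. Most of the bulge sum in the other mock libraries was Krt15, with 264 and 287 CPM in replicate 1 against 1533 to 2527 CPM. Of the same list, Lgr5 (38.8 and 44.8 against 18.7 to 19.6 CPM), Tbx1 and Cdh3 were higher in replicate 1. No gene of these lists found in the table was at 0 in every library.

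Mock replicate 1 was compared with every other mock library of the same genotype, on CPM + 1. Of the 40 genes past the filter, 11 (27.5%) were more than 2-fold higher in replicate 1 in both genotypes, against 6.3% of all 18252 genes. They were the ligands Wnt5a and Wnt11, the receptors Fzd1, Fzd4 and Fzd5, the coreceptor Ror2, the inhibitor Wif1, the secretion gene Porcn, and 3 of the 4 intracellular genes, Lef1, Tcf7 and Ctnnb1. A further 5 genes (12.5%, against 9.39% of all genes) were more than 2-fold lower there, all of them ligands: Wnt3, Wnt3a, Wnt7b, Wnt10a and Wnt16. None of the 6 feedback targets was in either set. Sp5, Nkd1 and Nkd2 were still highest in replicate 1 in both genotypes, whereas Axin2, Rnf43 and Znrf3 were not. Sp5 had 7 (fl/fl) and 9 (ΔK14) counts in replicate 1 and 0 counts in the other mock libraries. Both sets are counts over single libraries, without a test. The part of the hair, melanocyte, epidermal, bulge and proliferation RNA in them was not tested.

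Lef1 showed the split most clearly. Its level was 198, 5.87 and 2.31 CPM in fl/fl mock skin and 193 and 3.59 CPM in ΔK14 mock skin. Treated skin had 137, 70.8 and 88.3 CPM in fl/fl and 164, 85.9 and 73.3 CPM in ΔK14, and tumors had 0, 7.46 and 1.63 CPM and 0.223, 0.905 and 1.52 CPM. Treated skin and mock replicate 1 were thus high, while the other mock libraries overlapped the tumors. Fzd1 took the same form, at 322, 26.0 and 27.4 CPM in fl/fl mock skin, 243 and 21.9 CPM in ΔK14 mock skin, 111 to 392 CPM in treated skin and 23.5 to 56.2 CPM in tumors. Fzd5 had 318, 19.4 and 24.2 CPM in fl/fl mock skin and 283 and 29.8 CPM in ΔK14 mock skin. Tumors had 43.1 to 92.5 CPM of Fzd5, below mock replicate 1 and above the other mock libraries. Wnt16, a ligand, moved the other way, with 1.22, 22.1 and 30.6 CPM in fl/fl mock skin and 0.809 and 27.7 CPM in ΔK14 mock skin.

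**Figure D2:**
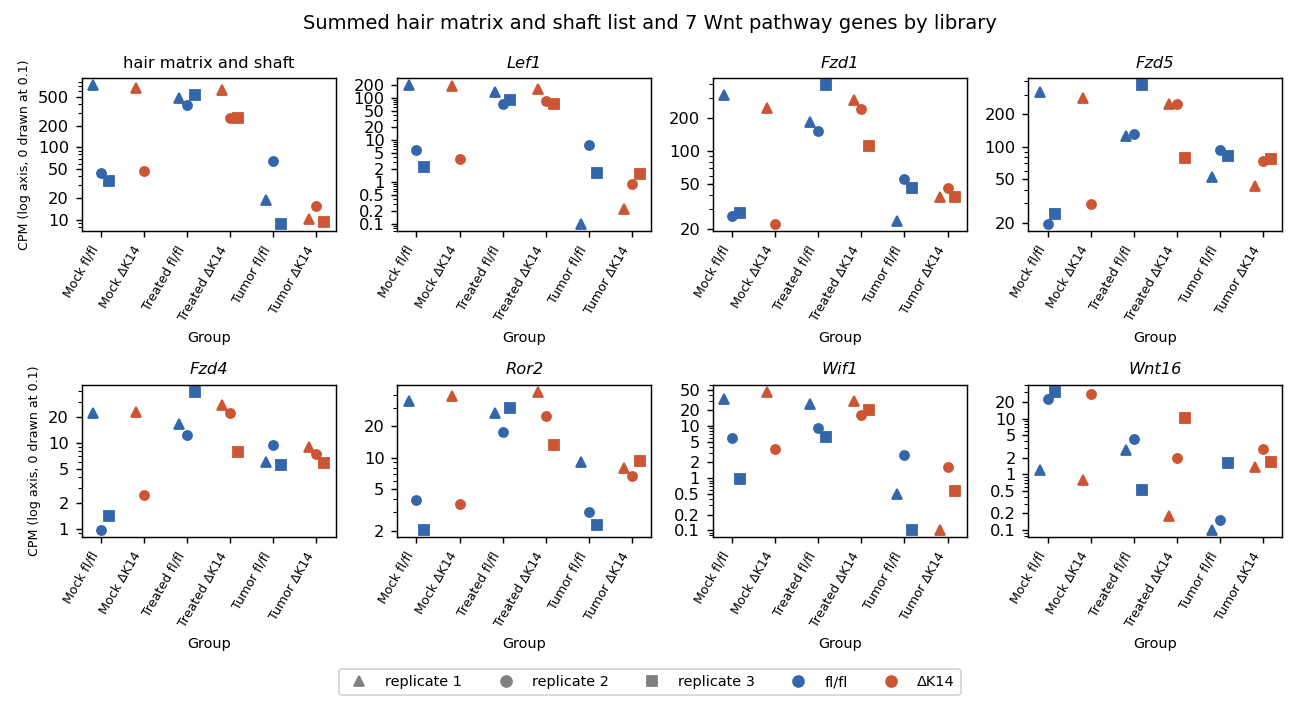
CPM (log axis, 0 drawn at 0.1) of the summed hair matrix and shaft list and of 7 Wnt pathway genes in each library, by group (x axis), genotype (color) and replicate (marker). Mock replicate 1 (triangles) lay with or above treated skin for the hair list, Lef1, Fzd1, Fzd5, Fzd4, Ror2 and Wif1, whereas Wnt16 was low in mock replicate 1.

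To set the tumor change apart from this variation, each tumor library was compared with all 11 skin libraries, mock replicate 1 included. In 7 of the 40 genes every one of the 6 tumor libraries was below every skin library, and in 0 every tumor library was above. Among all genes past the filter, 5.26% were below and 7.17% above in this way. The 7 genes were 5 of the 6 feedback targets (Axin2, Nkd1, Nkd2, Rnf43 and Znrf3), 1 ligand (Wnt3) and 1 receptor (Fzd10). For Nkd1 the counts were too few to set ΔK14 tumor replicate 2 (3 counts) apart from mock ΔK14 replicate 2 (2 counts). Leaving out any 1 library gave 7 to 9 genes outside the skin range, below or above, with 9 without fl/fl tumor replicate 2. Without that library Lef1 lay below, with at most 1.63 CPM in tumors and at least 2.31 CPM in skin. Porcn then lay above, with at least 24.5 CPM in tumors and at most 20.7 CPM in skin.

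Axin2, on chromosome 11 (GRCm38, 108920349 to 108950783), separated most widely. Its level was 45.3, 69.4 and 85.6 CPM in fl/fl mock skin and 56.6 and 56.8 CPM in ΔK14 mock skin. In treated skin it was 35.9, 39.6 and 24.2 CPM (fl/fl) and 45.9, 33.4 and 33.4 CPM (ΔK14). Tumors had 5.01, 5.17 and 6.20 CPM (fl/fl) and 5.36, 10.1 and 8.72 CPM (ΔK14), so the highest tumor library was less than any skin library. Axin2 fell in tumors in all 4 comparisons: the log2 fold change was -3.63 ± 0.35 (SE, adjusted p = 0.00671) against fl/fl mock skin and -2.62 ± 0.27 (adjusted p = 0.00172) against fl/fl treated skin. In ΔK14 it was -2.90 ± 0.33 (adjusted p = 0.00709) and -2.31 ± 0.27 (adjusted p = 0.000782). The call against ΔK14 mock skin was lost without ΔK14 tumor replicate 2 (adjusted p = 0.0566).

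The ligases that clear Frizzled receptors followed. Rnf43 had 44.4 to 62.3 CPM in mock skin, 28.6 to 55.9 CPM in treated skin, 9.52, 7.0 and 5.88 CPM in fl/fl tumors and 15.0, 17.6 and 13.6 CPM in ΔK14 tumors. Its log2 fold change against treated skin was -2.38 ± 0.25 (SE, adjusted p = 0.00176) in fl/fl and -1.49 ± 0.27 (adjusted p = 0.00379) in ΔK14. Znrf3 had 71.8 to 98.3 CPM in mock skin, 48.9 to 77.0 CPM in treated skin and 29.0 to 48.5 CPM in tumors, a narrow gap. It fell against mock skin in both genotypes, but against treated skin its change stayed under 2-fold, at -0.77 ± 0.22 (SE, adjusted p = 0.0401) in fl/fl and -0.76 ± 0.21 (adjusted p = 0.0210) in ΔK14.

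Nkd1 and Nkd2 were low throughout. Nkd1 ran from 0.718 to 4.47 CPM in skin and from 0 to 0.543 CPM in tumors. The lowest skin value, in mock ΔK14 replicate 2, came from 2 counts. The highest tumor value, in ΔK14 tumor replicate 2, came from 3 counts, so counting error does not separate these libraries. Summed over libraries, the Nkd1 level in tumors was 11% of that in treated skin in fl/fl (4 against 67 counts, exact 95% counting interval 2.92% to 29.6%). In ΔK14 it was 9.53% (5 against 66 counts, 3.00% to 23.4%). Nkd2 ran from 3.86 to 10.7 CPM in skin and from 0.543 to 2.90 CPM in tumors, and fell against treated skin by 2.04 on the log2 scale in fl/fl (SE 0.45, adjusted p = 0.0171) and by 1.82 in ΔK14 (SE 0.51, adjusted p = 0.0226). The remaining feedback target, the transcription factor Sp5, had at most 2.43 CPM in any library and 0 to 0.327 CPM in tumors.

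Wnt3 was the ligand below the skin range, with 18.2, 101 and 110 CPM in fl/fl mock skin, 12.4 and 97.3 CPM in ΔK14 mock skin, 7.87 to 38.2 CPM in treated skin and 1.83 to 7.14 CPM in tumors. The gap between the lowest skin library and the highest tumor library was thus small. Its log2 fold change against treated skin was -3.00 ± 0.58 (SE, adjusted p = 0.0114) in fl/fl and -1.40 ± 0.45 (adjusted p = 0.0380) in ΔK14, and the latter was kept in only 4 of 11 alternative fits. Fzd10, a Frizzled receptor, had 53.7 to 103 CPM in mock skin, 39.1 to 79.7 CPM in treated skin, 16.5, 8.07 and 6.53 CPM in fl/fl tumors and 17.4, 20.1 and 15.9 CPM in ΔK14 tumors. It fell against treated skin by 2.53 on the log2 scale in fl/fl (SE 0.35, adjusted p = 0.00347) and by 1.82 in ΔK14 (SE 0.27, adjusted p = 0.00180), and both calls were kept in 11 of 11 alternative fits.

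**Figure D3:**
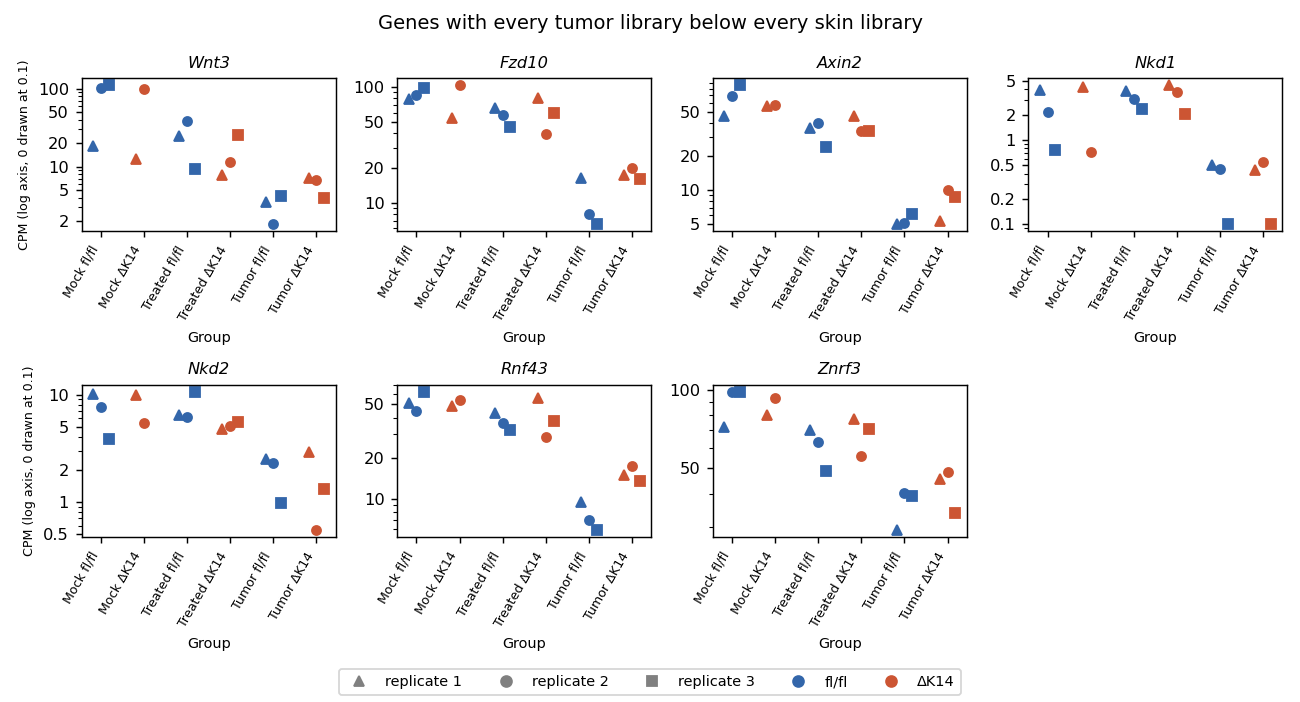
CPM (log axis, 0 drawn at 0.1) of the 7 genes in which all 6 tumor libraries lay below all 11 mock and treated libraries, by group (x axis), genotype (color) and replicate (marker). The separation was wide for Axin2, with at most 10.1 CPM in tumors and at least 24.2 CPM in skin, and narrow for Wnt3, Nkd1 and Znrf3.

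The comparison of tumors with treated skin uses no mock library. In fl/fl, 15 of 37 tested genes fell and 0 rose, against 10.5% of all tested genes called lower and 7.5% called higher (called: adjusted p under 0.05 and more than 2-fold, by edgeR's quasi-likelihood test). In ΔK14, 16 of 38 fell and 3 rose, against 15.5% and 10.5%. The median log2 fold change of the tested genes was -0.73 in fl/fl and -0.62 in ΔK14, and that of all tested genes was -0.02 and -0.03. Both genotypes shared 14 of the genes that fell: 6 of the 7 above without Znrf3, plus Fzd1, Fzd2, Fzd4, Fzd5, Fzd7, Ror2, Wif1 and Lef1. Without fl/fl tumor replicate 1, 17 genes were called in fl/fl in either direction, against 13.8% of all genes lower and 10.4% higher. Fzd5 and Fzd7 lost their calls there, so the 17 include genes outside the 15.

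Lef1 had the largest fitted fall of the shared genes in both genotypes, -4.73 ± 0.72 (SE, log2, adjusted p = 0.00496) in fl/fl and -6.95 ± 0.52 (adjusted p = 0.000173) in ΔK14. Among receptors, Fzd1 fell by 2.55 (SE 0.46, adjusted p = 0.00848) and 2.49 (SE 0.35, adjusted p = 0.00160) on the log2 scale. Fzd2 went from 33.9 to 40.0 CPM in fl/fl treated skin to 3.51 to 4.90 CPM in fl/fl tumors (-3.13 ± 0.24, SE, log2, adjusted p = 0.00102). In ΔK14 it went from 20.4 to 34.0 CPM to 3.98 to 9.60 CPM (-2.31 ± 0.37, adjusted p = 0.00248). Fzd7 went from 103 to 130 CPM in the 6 treated libraries to 34.1 to 79.0 CPM in the tumors, which did not overlap. In fl/fl, Fzd4 and Fzd7 kept their calls in 5 of 11 alternative fits each and Fzd5 in 4 of 11. Fzd5 lost its call whichever fl/fl library was left out, with adjusted p up to 0.28 over all alternatives.

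Wif1, a secreted protein that binds Wnt ligands, had 26.6, 8.96 and 6.25 CPM in fl/fl treated skin, 29.7, 16.5 and 20.6 CPM in ΔK14 treated skin and 0 to 2.74 CPM in tumors. It fell by 3.34 on the log2 scale in fl/fl (SE 0.89, adjusted p = 0.0307, kept in 6 of 11 alternative fits) and by 4.90 in ΔK14 (SE 0.60, adjusted p = 0.000939). Ror2 had 13.3 to 42.7 CPM in treated skin and 2.29 to 9.29 CPM in tumors, and fell by 2.55 (SE 0.49, adjusted p = 0.0107) and 1.85 (SE 0.41, adjusted p = 0.00904). Ctnnb1 had 675 to 870 CPM in treated skin and 414 to 578 CPM in tumors. Its groups did not overlap, but the change was under 2-fold, at -0.73 ± 0.19 (SE, log2, adjusted p = 0.0291) in fl/fl and -0.49 ± 0.17 (adjusted p = 0.0478) in ΔK14.

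In all, 14 genes had every tumor library below every treated library and 0 had every tumor library above, against 10.3% and 10.7% of all genes. Of these, 7 overlapped mock skin when the libraries of both genotypes were pooled (Fzd1, Fzd2, Fzd7, Ror2, Wif1, Lef1 and Ctnnb1). On CPM + 1, 5 of the 7 were among the genes that were more than 2-fold higher in mock replicate 1. Fzd2 and Fzd7 fell short of that cut but were also higher there in both genotypes. Within a genotype the overlap with mock skin did not hold for all 7. Fzd2 in tumors was below mock skin in both genotypes, at 3.51 to 4.90 CPM against 8.61 to 34.7 CPM in fl/fl and 3.98 to 9.60 CPM against 16.2 and 32.1 CPM in ΔK14. Wif1 and Lef1 in ΔK14 tumors were also below both ΔK14 mock libraries. The hair matrix list fell along with them against treated skin, with 11 of 14 tested genes called lower in fl/fl and 10 of 10 in ΔK14, and so did the inner root sheath list, with 7 of 8 in each genotype. Of the melanocyte list 1 of 4 tested genes fell in fl/fl and 3 of 4 in ΔK14. Of the fibroblast and dermal papilla list 2 of 8 fell in fl/fl and 1 of 8 in ΔK14. Its sum was 399 to 999.6 CPM in treated skin and 64.1 to 431 CPM in tumors. Dcn fell without overlap, from 164 to 839 CPM to 0.190 to 10 CPM. Col1a1 overlapped, at 40.3 to 257 CPM in treated skin and 17.1 to 188 CPM in tumors. Vcan had 126 and 67.6 CPM in fl/fl tumor replicates 2 and 3, against at most 44.9 CPM in treated skin and 40.9 CPM in other tumors. The lower sum thus does not show a fall of the list as a whole. In the basal list 1 of 6 genes rose in fl/fl and 5 of 6 in ΔK14. The part of hair, melanocyte, fibroblast and basal RNA in these falls was not tested.

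**Figure D4:**
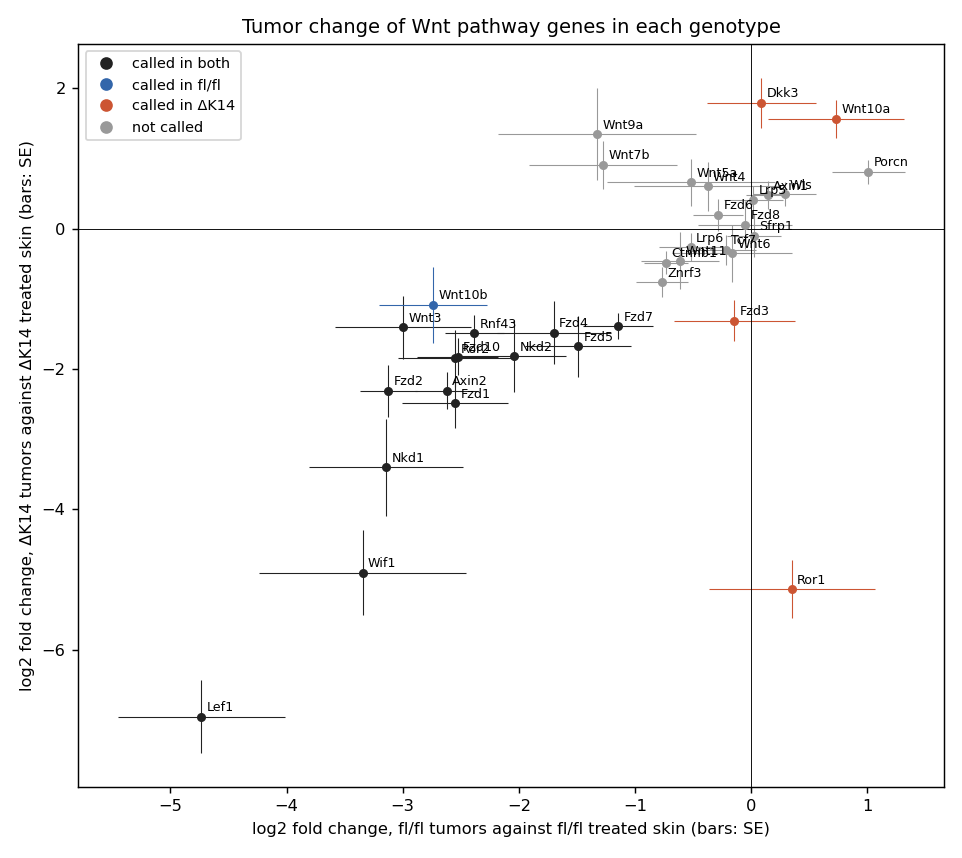
Log2 fold change of each gene tested in both genotypes, tumors against treated skin, in fl/fl (x axis) and ΔK14 (y axis), with bars for 1 SE and color for the calls. Of the genes plotted, 14 were called lower in both genotypes, Wnt10b in fl/fl alone, and Fzd3, Ror1, Dkk3 and Wnt10a in ΔK14 alone.

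Against mock skin, 6 of 36 tested genes fell in fl/fl tumors and 0 rose (1.88% of all genes lower, 2.22% higher): Wnt3, Wnt10b, Fzd10, Axin2, Rnf43 and Znrf3. In ΔK14 tumors 9 of 37 fell and 3 rose (7.22% and 7.05%). Wnt3, Fzd10, Axin2, Rnf43 and Znrf3 were called lower in both genotypes. In ΔK14 the others that fell were Ror1, Fzd2 (-2.01 ± 0.49, SE, log2, adjusted p = 0.0412), Wif1 (-5.08 ± 1.21, adjusted p = 0.0390) and Lef1 (-6.83 ± 1.5, adjusted p = 0.0324), and Wnt9a, Dkk3 and Porcn rose. The medians were -0.48 and -0.49 on the log2 scale, and those of all genes -0.05 and -0.06. In fl/fl, Axin2 kept its call in 11 of 11 alternative fits, Rnf43 in 8, Fzd10 in 7, and Wnt3, Wnt10b and Znrf3 in 5 each. In ΔK14, Ror1 kept its call in 11 of 11, Axin2 in 10, Dkk3 in 9, Fzd10, Wnt9a and Porcn in 8 each, Rnf43 in 7, Wnt3, Fzd2, Wif1 and Lef1 in 6 each, and Znrf3 in 5. The ΔK14 fits include the fit that counted the identical mock columns as 2 libraries, in which all of these calls were kept. Without fl/fl tumor replicate 1, 4 genes were called in fl/fl in either direction (0.939% of all genes lower, 2.71% higher). Fzd10, Axin2 and Rnf43 kept their calls there, and Wnt3, Wnt10b and Znrf3 lost theirs.

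The mock library left in the comparison decided several further calls. Without fl/fl mock replicate 1, 11 genes were called in fl/fl tumors, against 11.5% of all genes lower and 9.45% higher. The 6 above were among them, Wnt16 was lower (-5.54, log2, adjusted p = 0.00527), and Fzd4 (2.48, adjusted p = 0.0196), Fzd5 (1.79, adjusted p = 0.0123), Wnt11 (1.82, adjusted p = 0.0295) and Porcn (3.14, adjusted p = 0.0106) were higher. Fzd4 and Fzd5 were thus lower in tumors than in treated skin and higher than in mock skin without its hair-rich library. In ΔK14, with only 1 mock library left, assumed to vary like the tumors, 20 genes were called against replicate 1 (13.1% of all genes higher, 8.92% lower) and 11 against replicate 2 (14.7% higher, 13.4% lower). There Lef1 fell by 7.70 on the log2 scale against replicate 1 (adjusted p = 2.03e-05) and was not called against replicate 2. Wnt10a (2.59, adjusted p = 0.00106), Wnt3a (3.51, adjusted p = 0.00415) and Wnt7b (1.77, adjusted p = 0.0370) were higher, and Fzd1 (-2.57, adjusted p = 0.000181) and Fzd5 (-2.14, adjusted p = 0.00137) lower, only against replicate 1. Axin2, Rnf43, Fzd10 and Ror1 were lower, and Wnt9a, Dkk3 and Porcn higher, against either mock library.

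Treated and mock skin differed in 0 of 39 tested genes in fl/fl and 0 of 38 in ΔK14 by edgeR, with 0% of all genes called in either genotype. DESeq2 also called 0 of the Wnt genes, and 7 and 1 of them had an unadjusted p under 0.05. Without fl/fl mock replicate 1, however, 16 genes were called in fl/fl, against 7.97% of all genes higher and 7.16% lower. Those higher in treated skin were Lef1 (4.76, log2, adjusted p = 0.00135), Fzd4 (4.19, adjusted p = 0.00495), Fzd5 (3.28, adjusted p = 0.00606), Fzd1 (3.21, adjusted p = 0.00343), Ror2 (3.19, adjusted p = 0.00206), Wnt9a, Wnt11, Porcn, Fzd2 and Fzd7. Lower were the ligands Wnt16 (-3.45, adjusted p = 0.00520), Wnt3a, Wnt3, Wnt10a and Wnt7b, and Axin2 (-1.20, adjusted p = 0.00921). By the 2-fold cut on CPM + 1, Axin2, Wnt9a, Fzd2 and Fzd7 were not among the genes that split the mock libraries. Fzd2 and Fzd7 were nevertheless higher in mock replicate 1. Fzd7 had 118 against 57.1 and 58.4 CPM in fl/fl and 106 against 38.4 CPM in ΔK14. Fzd2 had 34.7 against 8.61 and 11.7 CPM in fl/fl and 32.1 against 16.2 CPM in ΔK14. The level of Axin2 in the 6 treated libraries (24.2 to 45.9 CPM) overlapped that in the 5 mock libraries (45.3 to 85.6 CPM) in 1 treated and 1 mock library.

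Genotypes were compared within each stage. By edgeR 0 Wnt genes were called between ΔK14 and fl/fl in mock skin (38 tested, 0% of all genes), in treated skin (38 tested, 0.00616%) and in tumors (33 tested, 0.0284%). DESeq2 called 0 in each as well. An unadjusted p under 0.05 was found for 0, 2 and 6 genes. In treated skin these were Wnt7b (17.8, 26.2 and 30.5 CPM in fl/fl, 7.15, 9.09 and 14.3 CPM in ΔK14, -1.31 ± 0.30, SE, log2, adjusted p = 0.816) and Porcn (0.56 ± 0.18, adjusted p = 0.897), both without overlap between the genotypes.

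In tumors, fl/fl replicate 1 lay near the ΔK14 libraries for a series of genes. Ror1 was the plainest case, with 1.5, 30.4 and 31.3 CPM in fl/fl tumors, 0.446, 0.181 and 0.569 CPM in ΔK14 tumors and 10.8 to 20.4 CPM in the 11 skin libraries. Over the 3 ΔK14 tumors only 6 Ror1 counts were found, a level of 2.85% of ΔK14 treated skin (265 counts, exact 95% counting interval 1.04% to 6.28%) and 2.30% of ΔK14 mock skin (111 counts, 0.825% to 5.16%). Its fall in ΔK14 tumors against treated skin was kept in 11 of 11 alternative fits (adjusted p = 0.000195). In fl/fl its change against treated skin was 0.35 on the log2 scale and not called. The interaction, the difference of the tumor change between genotypes, was -5.47 ± 1.08 for Ror1 (SE, log2, adjusted p = 0.152), and -5.52 with adjusted p = 0.000496 by DESeq2. Sebaceous gland RNA moved with Ror1 among tumors, since the list summed to 4843 and 8833 CPM in the fl/fl tumors with Ror1 and to 606 to 806 CPM in the tumors without it. Skin, however, had 572 to 1085 CPM of the list together with Ror1. The part of sebaceous RNA in the Ror1 level was not tested.

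Wnt5a had 88.1, 13.2 and 11.8 CPM in fl/fl tumors against 70.1, 169.8 and 99.2 CPM in ΔK14 tumors. Wnt3a had 7.51, 0.457 and 0 CPM against 9.60, 16.3 and 11.9 CPM, without overlap, and 0 to 4.37 CPM in treated skin. Wnt4 had 97.2, 13.8 and 23.8 CPM against 106, 73.3 and 57.6 CPM. In all 3 ligands the low values belonged to fl/fl replicates 2 and 3.

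Without fl/fl tumor replicate 1, 12 Wnt genes were called between tumor genotypes, against 7.32% of all genes higher and 9.58% lower in ΔK14. Of these, 10 were higher in ΔK14: Wnt3a (5.16, log2, adjusted p = 0.000457), Wnt9a (3.10, adjusted p = 0.00656), Wnt5a (3.05, adjusted p = 0.000507), Wnt7b (2.06, adjusted p = 0.00546), Wnt4 (2.00, adjusted p = 0.00273), Dkk3 (1.86, adjusted p = 0.00758), Wnt10a, Ror2, Fzd10 and Rnf43. Lower were Ror1 (-6.31, adjusted p = 1.37e-05) and Fzd3 (-1.84, adjusted p = 0.00356). With this library, none of these was called by edgeR with the low-count filter and each comparison fitted on its own groups. Without the filter Wnt3a, Wnt5a (1.70, adjusted p = 1.59e-07), Wnt9a, Wnt10b, Fzd3, Ror1 and Dkk3 (1.51, adjusted p = 4.73e-05) were called, and in 1 fit of all libraries Ror1 was (-5.70, adjusted p = 0.0101). The interaction of tumor against treated skin with genotype called 0 of 39 genes (0.0118% of all genes; 7 genes with an unadjusted p under 0.05, and 1 called by DESeq2). It called 8 without the library (3.49% higher, 4.04% lower): Wnt3a, Wnt4, Wnt5a, Wnt7b, Wnt10a and Dkk3 higher, and Ror1 and Fzd3 lower. The interaction of tumor against mock skin called 0 of 39 (0% of all genes; 3 with an unadjusted p under 0.05, and 1, Ror1, by DESeq2). Without the library it called 1, Ror1 (-6.29, log2, adjusted p = 0.00191; 0.0392% of all genes higher, 0.0896% lower). The interaction of treated against mock skin with genotype called 0 of 40 (0% of all genes; 0 with an unadjusted p under 0.05, and 0 by DESeq2).

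Some genes changed in ΔK14 tumors in comparisons that hold ΔK14 libraries alone. Dkk3, a Dickkopf family member, had 12.2, 20.0 and 8.76 CPM in treated skin and 34.8, 66.5 and 53.8 CPM in tumors, a rise of 1.80 ± 0.36 (SE, log2, adjusted p = 0.00574). Wnt3a rose by 3.64 ± 0.65 (adjusted p = 0.00375). Wnt10a, a ligand of hair and tooth development, went from 13.9, 13.8 and 27.0 CPM to 50.9, 54.3 and 67.1 CPM, a rise of 1.57 ± 0.27 (adjusted p = 0.00334). Fzd3 fell by 1.31 (SE 0.29, adjusted p = 0.00935). Against mock skin, Wnt9a and Porcn also rose: Wnt9a had 2 counts in both mock libraries together and 79 in the tumors, a level of 1678% of mock skin (exact 95% counting interval 449% to 14098%). Porcn had 9.44 and 3.23 CPM in ΔK14 mock skin, 17.5 to 20.7 CPM in ΔK14 treated skin and 34.6 to 36.8 CPM in ΔK14 tumors, a rise of 2.35 ± 0.47 over mock skin (SE, log2, adjusted p = 0.0256). Over treated skin it changed by 0.81 ± 0.17 (adjusted p = 0.00722), short of 2-fold. In fl/fl alone, Wnt10b, a ligand linked to hair growth, was called lower: it had 11.9, 6.77 and 14.4 CPM in treated skin and 1.5, 2.28 and 0.980 CPM in tumors (-2.74 ± 0.46, SE, log2, adjusted p = 0.00703), while ΔK14 tumors had 1.79, 10.9 and 6.64 CPM. The difference of the change between genotypes was 1.66 ± 0.80 (adjusted p = 0.400).

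**Figure D5:**
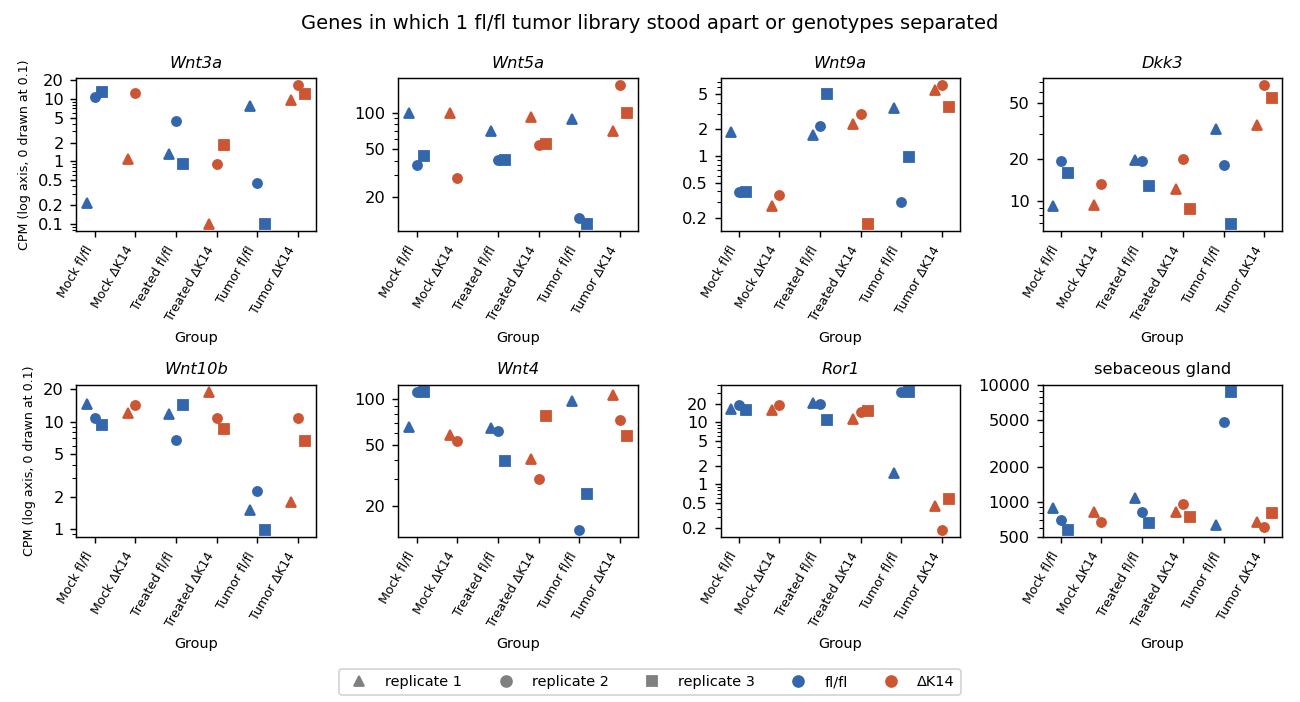
CPM (log axis, 0 drawn at 0.1) of 7 Wnt pathway genes and of the summed sebaceous gland list in each library, by group (x axis), genotype (color) and replicate (marker). The fl/fl tumor replicate 1 (blue triangle) lay with the ΔK14 tumors for Wnt3a, Wnt5a, Wnt4, Ror1 and the sebaceous list, and with the other fl/fl tumors for Wnt10b.

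Because tristetraprolin binds AU-rich elements, 3′ untranslated regions, the longest in the annotation for each gene, were searched on the sense strand for the heptamer TATTTAT and the nonamer TTATTTATT, which contains it. The heptamer occurred in 24 of 42 Wnt genes (57.1%) and in 27.6% of 21042 genes, but the Wnt genes had longer regions, with a median of 1788.5 against 960 bases. The nonamer occurred in 5 of 42 (11.9%, against 7.65%). The comparison of genotypes could bear on genes with either element. The 5 nonamer sites are shown because the nonamer is the longer element. They are printed 5′ to 3′ on the sense strand from GENCODE M21 on GRCm38, with the nonamer in capitals, at chr11:103817881-103817905 (Wnt3), chr4:137296901-137296925 (Wnt4), chr14:28527384-28527408 (Wnt5a), chr7:89409979-89410003 (Fzd4) and, on the minus strand, chr7:112116290-112116314 (Dkk3).
Wnt3: tataaataTTATTTATTatacaatg
Wnt4: tcctcaagTTATTTATTgccaaaaa
Wnt5a: gataaagaTTATTTATTtttgttca
Fzd4: aacttcagTTATTTATTgattcatg
Dkk3: ttccctgaTTATTTATTctggaacc
Of these 5 genes, 0 were called between genotypes at any stage with all libraries and the low-count filter. Without the filter Wnt5a and Dkk3 were called higher in ΔK14 tumors, and Wnt4, Wnt5a and Dkk3 were called higher in ΔK14 tumors without fl/fl tumor replicate 1. Wnt genes without a nonamer were called there as well. A match is a description of the sequence and not evidence of binding.

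Promoters were searched for the LEF/TCF heptamers CTTTGAT and CTTTGAA on both strands in windows from 250 bases before to 50 bases after the start (RefSeq, GRCm38.p6). A window was found for 28 of the 42 genes. Of their 37 windows, 4 held a match (10.8%), and so did 8.65% of all windows. The matches were in Wnt5b, Wnt11, Dkk1 and Sp5, and none of the 7 genes below the skin range with a window held one. The Sp5 match, in a gene known as a direct Wnt target, lies on the sense strand 104 bases before the start at chr2:70474808-70474837.
Sp5: ggcaaggccccCTTTGATcaggaaaatcca
The capitals mark the heptamer. No match says only that these letters are not in the window.

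Other Wnt genes, from lists beside the 42, were counted in the same fits of tumors against treated skin, where 10.5% of all genes were called lower and 7.5% higher in fl/fl, and 15.5% and 10.5% in ΔK14. Of 8 further receptors and coreceptors 7 were tested, with 3 lower in fl/fl and 4 in ΔK14 (medians -1.19 and -2.28, log2). They included Lgr5, a receptor for R-spondins that also marks follicle stem cells (-3.39 ± 0.49, SE, adjusted p = 0.00396, and -4.15 ± 0.45, adjusted p = 0.000569), and Kremen2, a Dickkopf receptor (-3.70 ± 0.49, adjusted p = 0.00312, and -4.80 ± 0.56, adjusted p = 0.000748). Among 9 tested further target genes, 5 were lower and 1 higher in fl/fl, and 6 lower and 2 higher in ΔK14 (medians -2.81 and -2.47). Dlx3 (-5.16 and -5.21) and Msx2 (-5.21 and -4.90), homeobox genes that the hair matrix list also holds, were among those lower. Cd44 went the other way, with 508 to 1031 CPM in treated skin and 1870 to 3025 CPM in tumors. Ccnd1 had 90.3 to 117 CPM in ΔK14 treated skin and 299 to 341 CPM in ΔK14 tumors. In fl/fl it had 47.4 to 88.1 CPM in treated skin and 364, 43.1 and 55.5 CPM in tumors.

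Of 22 further intracellular genes, 22 were tested in fl/fl with 4 lower and 1 higher, and 21 in ΔK14 with 2 lower and 0 higher (medians -0.31 and -0.24). Bcl9, a β-catenin cofactor, fell by 1.62 on the log2 scale in fl/fl (adjusted p = 0.00798), as did Tcf7l1, a repressor of the TCF family, by 1.97 (adjusted p = 0.00974). Neither was called in ΔK14 (-0.41 and -0.87). Of 10 planar polarity genes, 2 were lower in fl/fl and 3 in ΔK14 with 0 higher (medians -0.64 and -0.30), among them Prickle1 (-3.23 and -2.64) and Vangl2 (-2.18 and -1.02). Only 4 of 12 further inhibitors were tested. Apcdd1 fell in both genotypes (-1.79, adjusted p = 0.0116, and -2.48, adjusted p = 0.00180), and Tpbg was called higher in ΔK14 (1.16, adjusted p = 0.00879) with a change of 0.65 in fl/fl. None of the 10 further ligands passed the filter, and together they summed to 0.501 to 29.4 CPM a library.

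The remaining genes of the 42 were called in none of the comparisons with all libraries, with the low-count filter and each comparison fitted on its own groups. Lrp5 and Lrp6 stayed between 50.9 and 108 CPM and between 89.4 and 224 CPM. Wls had 78.4 to 214 CPM, Axin1 30.2 to 60.9 CPM and Tcf7 11.6 to 32.6 CPM. Among receptors, Fzd6 had 51.1 to 99.1 CPM and Fzd8 5.01 to 16.4 CPM. Sfrp1, a secreted Frizzled-related protein, had 51.0 to 135 CPM, and its change from mock to treated fl/fl skin (55.9 to 60.4 against 100.3 to 121 CPM, without overlap) was 0.92 ± 0.16 (SE, log2, adjusted p = 0.314). Wnt11 had 1.76 to 15.6 CPM over all libraries, and Wnt16 had 0.179 to 10.1 CPM in treated skin and 0 to 2.90 CPM in tumors. Wnt5b, Wnt6 and Wnt7a were sparse, with at most 3.20, 10.2 and 3.23 CPM.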

How the data were processed

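The deposited table held raw read counts per gene, not normalized. Per the labels, libraries were made with the Ovation SoLo RNA-Seq system, and the submitters' processing notes name Trimmomatic 0.36, STAR 2.5.3, HTSeq 0.9.1, DESeq2 and mm10, while the table is named as featureCounts output. Which tool made these counts, the use of strand and the removal of PCR duplicates are not given in the sources used here, so overlapping or antisense genes cannot be told apart. Counts measure precision for counting error only.

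Groups came from the labels. Tests ran under R 4.3.3 in edgeR 4.0.16 (filterByExpr, TMM, quasi-likelihood F test, two-sided), each comparison on the libraries of its groups, with Benjamini-Hochberg adjustment over all tested genes. A gene was called at adjusted p under 0.05 and over 2-fold. CPM used TMM-scaled totals. Mock libraries were compared on CPM + 1. Alternatives were DESeq2 1.42.0, RLE scaling, no filter, all libraries in 1 fit, a replicate block and each library left out. Counting the identical columns as 2 libraries and leaving out mock replicate 1 in both genotypes were added after seeing the data. The edgeR procedure was tested on simulated counts, for fl/fl tumors against treated skin and for the interaction of tumor against treated skin with genotype. The simulated spread was the same for every gene, so genes that vary more between libraries were not covered. DESeq2 and the counts over library ranges were not tested in this way.

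Every one of the 42 genes is accounted for, with statistics for called genes and for uncalled genes without overlap with the smallest p, up to 3 per role and comparison. At most 2 genes of each further Wnt list are named for the smallest p in fl/fl tumors against treated skin. Cd44 and Ccnd1 are named beside them for higher levels in tumors. The genes and lists were chosen with earlier results of these data known. Positions and lengths came from GENCODE M21.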

Additional observations from a re-analysis of the deposited data

How the results depend on the processing

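With all libraries, the genes called fell from 6 to 3 with the replicate block in fl/fl tumors against mock skin and numbered 10 with DESeq2, 13 without the filter and 11 with all libraries in 1 fit. In ΔK14 tumors the block gave 6 instead of 12 against mock skin, and 1 fit of all libraries gave 11 instead of 19 against treated skin. Counts of 0 became 1 without the filter for treated against mock ΔK14 skin (Wnt3) and for treated genotypes (Wnt7b), 7 for tumor genotypes (1 with all libraries in 1 fit), and 1 and 7 for the interactions of tumor with mock and treated skin (1 and 1 with DESeq2). Same-numbered replicates were not paired: in groups with 3 pairs their deviations correlated from -0.546 to 0.391. Comparisons with 2 pairs had too few for this check, with correlations of 0.569 and 0.782 for mock genotypes, 0.141 and 0.569 for treated against mock ΔK14 skin, and 0.0943 and 0.124 for ΔK14 tumors against mock skin. The block changed no other count by over 1.5 times.

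Leaving out 1 library gave 1 to 11 calls for fl/fl tumors against mock skin (1 without mock replicate 2, tumor replicate 2 or tumor replicate 3), 8 to 17 against treated skin (8 without treated replicate 1), and 0 to 16 for fl/fl treated against mock skin. For ΔK14 tumors it gave 1 to 20 against mock skin (1 without tumor replicate 2) and 15 to 20 against treated skin. It gave 0 to 12 for tumor genotypes, 0 to 1 and 0 to 8 for the interactions of tumor with mock and treated skin, and 0 to 0 for the other comparisons. Outside the skin range, below or above, it gave 7 to 9 genes. Where 1 mock ΔK14 library was left, it was assumed to vary like the tumors. No called gene changed direction under the alternatives run: of 572 values of called genes, 446 kept their call and 126 lost it. These values include the fits that counted the identical columns as 2 libraries. The cause of lost calls was not tested.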
